A study of Mus musculus with 6 samples.

Results

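The glucocorticoid receptor gene Nr3c1 and 9 genes known to respond to its hormone in the brain (Fkbp5, Sgk1, Tsc22d3, Zbtb16, Pdk4, Cdkn1a, Hif3a, Plin4 and Sult1a1) were read from the RNAseq profiles of mouse hippocampi. They were chosen by gene symbol as a readout of stress, 10 of the 54838 genes in the count table, and all 10 had enough counts to be tested. The mice were females 7 months of age, 3 wild-type and 3 of the line FVB/NJ-Tg(ORAI1)Ibd, and each gave 1 library from its hippocampal RNA. These transgenic mice carry a human ORAI1 coding sequence, a plasma membrane calcium channel, in the Thy-1.2 cassette that drives expression in neurons. The sources used here give no stress, handling or hormone treatment and no plasma corticosterone value for these mice. Nothing in the labels tells litter or collection time.

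Glucocorticoids such as corticosterone enter cells and bind the receptor NR3C1, which is held in the cytosol by heat shock protein 90 and its cochaperones. The bound receptor moves to the nucleus and raises or lowers transcription of its target genes, in part through palindromic DNA elements made of a pair of half-sites. The hippocampus is rich in this receptor and in the related mineralocorticoid receptor, which binds the same hormone with higher affinity, and is known for its role in the feedback that ends the stress response.

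Between 37414241 and 52497799 counts per library fell on genes, and the 10 genes held between 146 and 5434 of them per gene and library. The labels call the run paired-end but give a single read length, so whether a count is a read pair or a single read is not settled. Of the 19087 genes tested with edgeR's quasi-likelihood test, 591 were higher and 764 lower in transgenic mice with a Benjamini-Hochberg adjusted p under 0.05. Orai1 checked the labels, with 7.16 to 8.08 CPM (normalized counts, relative to the library total after scaling) in wild-type and 313 to 331 CPM in transgenic mice. Reads were aligned to the mouse genome and the transgene is human, so the share of these counts from the mouse gene was not tested. Defining genes of other cells in the dissected tissue were compared too. All 15 listed markers of the choroid plexus, the epithelium that makes cerebrospinal fluid beside the hippocampus, were lower in transgenic mice, with a summed level of 3927 to 6075 CPM in wild-type and 559 to 875 CPM in transgenic mice. None was at 0. Of the 10 oligodendrocyte, 8 astrocyte, 6 mural, 8 meningeal fibroblast and 6 microglia markers none passed edgeR's test, and at an unadjusted p under 0.05 these numbered 0, 0, 1, 1 and 2 in this order. Their median log2 fold changes were 0.052, 0.042, -0.093, -0.047 and 0.32, beside -0.010 over all genes tested. For microglia the median was 0.22 after removal of the GC trend of each library, described below. Of the 8 endothelial markers 1 rose and 1 fell, and 1 of the 8 markers of hippocampal neurons rose, with all of the neuronal markers detected. After removal of the GC trend no endothelial or neuronal marker was called.

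The receptor and 1 of its targets were lower in transgenic hippocampi, and none of the 10 genes was higher with an adjusted p under 0.05. Nr3c1 and Tsc22d3 fell. The other 8 genes did not pass the test. These were 2 of 10 genes called lower and 0 of 10 called higher, where 4.0% of all genes tested were called lower and 3.10% higher. Estimates were below 0 on the log2 scale for 8 of the genes and above 0 for Fkbp5 and Cdkn1a, with a median of -0.26 beside a median of -0.010 over all genes tested. The 3 transgenic values lay below all 3 wild-type values for 2 genes and above them for 1, where this held for 17.9% and 16.9% of all genes tested. At an unadjusted p under 0.05 in edgeR 4 of the genes were lower and 0 higher, where 14.8% of all genes tested were lower and 13.0% higher. DESeq2 gave 4 genes lower and 0 higher after adjustment, where it called 6.16% of all genes lower and 5.53% higher. With limma-voom 2 were lower and 0 higher, beside 3.73% and 2.88% of all genes. The summed level of the 10 genes was 438 to 464 CPM in wild-type and 351 to 387 CPM in transgenic mice.

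**Figure D1:**
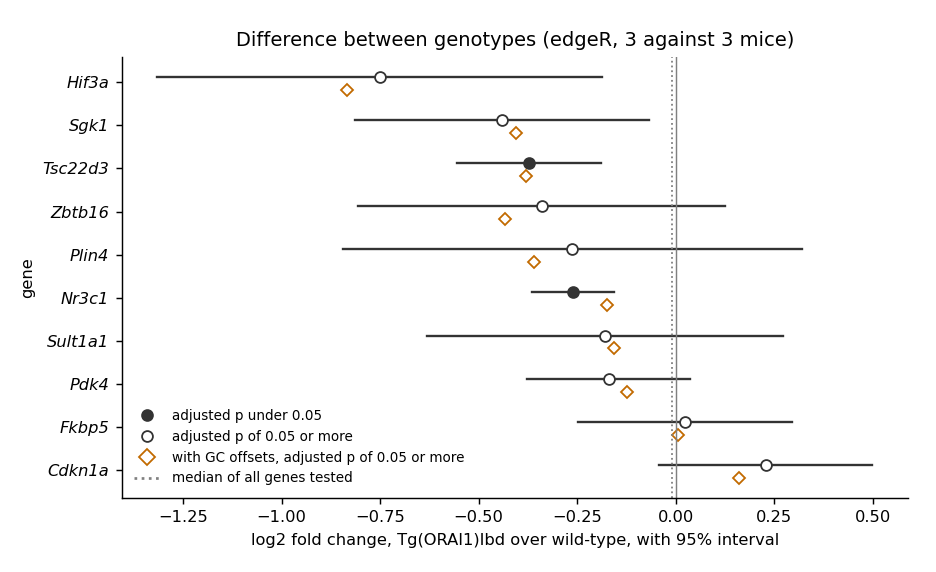
Log2 fold change of the 10 genes between genotypes (horizontal axis, transgenic over wild-type, 3 mice against 3) with its 95% interval, filled where the edgeR adjusted p was under 0.05. Nr3c1 and Tsc22d3 are filled, at -0.26 and -0.37, and the open diamonds give the estimates after removal of the GC trend of each library, where none of the 10 genes was called.

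Nr3c1 (ENSMUSG00000024431) encodes the receptor itself and lies on the minus strand of chromosome 18 (GRCm38, 39410545 to 39519421). Its level was 95.7, 90.4 and 96.0 CPM in the wild-type mice and 80.4, 77.9 and 77.1 CPM in the transgenic mice. The highest transgenic mouse lay below the lowest wild-type mouse, and the mice of each genotype were close together. The log2 fold change was -0.26 (SE 0.045, 95% interval -0.36 to -0.16, edgeR adjusted p = 0.026, lower in 9 of 9 pairs of mice). Fold changes in these libraries moved with the GC content of the transcripts. The 1856 genes tested within 1 percentage point of the GC content of Nr3c1 (44.8%) were at a median of -0.091 on the log2 scale, and 19.1% of them were lower than Nr3c1. When offsets took out the GC trend library by library, the log2 fold change of Nr3c1 was -0.17 with an edgeR adjusted p of 0.0943.

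Tsc22d3 (ENSMUSG00000031431), also called GILZ, encodes a leucine zipper protein that carries anti-inflammatory actions of glucocorticoids and lies on the minus strand of chromosome X (140539528 to 140600659). It was measured at 53.3, 64.2 and 59.4 CPM in wild-type and at 48.7, 44.4 and 43.5 CPM in transgenic mice. These groups did not overlap either, although the wild-type mice were more spread out than for Nr3c1. The log2 fold change was -0.37 (SE 0.079, 95% interval -0.56 to -0.19, edgeR adjusted p = 0.038). With GC offsets the value was -0.38 and the edgeR adjusted p 0.0504, and the 2034 genes of like GC content had a median of 0.0063.

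The fold changes of both genes stayed about as large when single mice were left out, from -0.28 to -0.23 for Nr3c1 and from -0.43 to -0.29 for Tsc22d3 on the log2 scale, while most of these smaller fits lost the call. With wild-type mouse 1, 2 or 3 left out, the edgeR adjusted p of Nr3c1 was 0.141, 0.108 and 0.0502, and with transgenic mouse 2 or 3 left out it was 0.0962 and 0.108. The same fits gave 0.0961, 0.153 and 0.0712, and then 0.114 and 0.134, for Tsc22d3. Without the first transgenic mouse both genes passed, with an edgeR adjusted p of 0.0264 for Nr3c1 and 0.0358 for Tsc22d3. In bulk tissue, fewer cells of a type and less RNA per cell cannot be told apart. The choroid plexus markers above moved in the same direction as both genes, and their part in these differences was not tested.

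Sgk1 (ENSMUSG00000019970) encodes a kinase that acts on ion channels and transporters and lies on the plus strand of chromosome 10 (21882184 to 21999903). It had 85.6, 105.3 and 120.2 CPM in wild-type and 60.5, 87.8 and 81.0 CPM in transgenic mice. The second transgenic mouse stood above the first wild-type mouse, so the groups overlapped. Its log2 fold change of -0.44 had an SE of 0.16 and a 95% interval of -0.81 to -0.067, and the edgeR adjusted p was 0.126. DESeq2's Wald test gave an adjusted p of 0.0305 for the same libraries.

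Hif3a (ENSMUSG00000004328) encodes an alpha subunit of the hypoxia-inducible factors and lies on the minus strand of chromosome 7 (17031507 to 17062427). Its level was 7.64, 10.5 and 5.60 CPM in wild-type and 5.66, 3.83 and 4.62 CPM in transgenic mice. The lowest wild-type mouse fell just under the highest transgenic mouse. Its log2 fold change of -0.75 was the lowest of the 10 genes, with an SE of 0.24, a 95% interval of -1.31 to -0.19 and an edgeR adjusted p of 0.0969. DESeq2's Wald test gave an adjusted p of 0.0264. The choroid plexus marker Ttr was measured at 3506, 3890 and 2042 CPM in the wild-type mice and at 383, 179 and 301 CPM in the transgenic mice, in the same order of mice within each genotype as Hif3a. Of the 15 choroid plexus markers 4 (Ttr, Clic6, Otx2 and Calml4) had this order and 11 had another, and the part of these cells in the level of Hif3a was not tested.

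Zbtb16 (ENSMUSG00000066687) encodes the zinc finger repressor PLZF and lies on the minus strand of chromosome 9 (48654297 to 48836222). It ran from 72.0 to 104 CPM in wild-type and from 57.4 to 92.6 CPM in transgenic mice. A single transgenic mouse, the first, reached the wild-type range. Its log2 fold change was -0.34 with a 95% interval of -0.81 to 0.13 and an edgeR adjusted p of 0.313. It was -0.19 without the first wild-type or the third transgenic mouse and -0.59 without the first transgenic mouse (edgeR adjusted p = 0.0534).

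Fkbp5 (ENSMUSG00000024222, chromosome 17, minus strand, 28399094 to 28517527) encodes the cochaperone FKBP51, which lowers the affinity of the receptor for its hormone and is itself raised by the hormone. Its level was 54.6, 60.5 and 47.3 CPM in wild-type and 63.7, 50.7 and 50.7 CPM in transgenic mice. These ranges overlapped, with the third wild-type mouse below all transgenic mice and the first transgenic mouse above all wild-type mice. Its log2 fold change was 0.024 with a 95% interval of -0.25 to 0.30 and an edgeR adjusted p of 0.920. Its sign depended on single mice, with -0.057 without the third wild-type mouse and -0.096 without the first transgenic mouse.

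Pdk4 (ENSMUSG00000019577, chromosome 6, minus strand, 5483351 to 5496309) encodes a kinase that switches off pyruvate dehydrogenase and so spares glucose. It had 19.5, 17.8 and 22.4 CPM in wild-type and 17.04, 18.03 and 17.9 CPM in transgenic mice, and the groups overlapped. The log2 fold change was -0.17 (95% interval -0.38 to 0.038, edgeR adjusted p = 0.259). Cdkn1a (ENSMUSG00000023067, chromosome 17, plus strand, 29090976 to 29100727) encodes the cell cycle inhibitor p21. It was measured at 4.85, 5.0 and 4.52 CPM in wild-type and at 5.62, 6.21 and 5.02 CPM in transgenic mice. It was the gene whose transgenic values all lay above the wild-type values, by a narrow margin, and the log2 fold change of 0.23 did not pass the test (95% interval -0.041 to 0.50, edgeR adjusted p = 0.244).

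Plin4 (ENSMUSG00000002831, chromosome 17, minus strand, 56100591 to 56109803) encodes a coat protein of lipid droplets and was measured at 6.02, 9.10 and 4.44 CPM in wild-type and at 6.11, 4.64 and 5.56 CPM in transgenic mice. The wild-type mice enclosed all of the transgenic values. The log2 fold change was -0.26 with a 95% interval of -0.84 to 0.32 and an edgeR adjusted p of 0.542, and it was 0.070 without the second wild-type mouse. Sult1a1 (ENSMUSG00000030711, chromosome 7, minus strand, 126672865 to 126676432) encodes a sulfotransferase for phenols and had 7.26, 10.9 and 9.30 CPM in wild-type and 6.39, 9.78 and 8.15 CPM in transgenic mice. The groups overlapped, and the log2 fold change was -0.18 with a 95% interval of -0.63 to 0.27 and an edgeR adjusted p of 0.596. It was -0.016 without the second wild-type mouse and -0.029 without the first transgenic mouse, and -0.31 without the first wild-type or the second transgenic mouse.

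Promoter windows from RefSeq (build GRCm38.p6), each from 250 bases before to 50 bases after a transcription start, were searched for the receptor's half-site AGAACA on either strand, which reads TGTTCT on the other. Windows were held for 8 of the 10 genes, with 16 windows in all. The half-site stood in 5 of them, from Sgk1, Tsc22d3 and Sult1a1, and in 19.0% of all 32851 windows. The full palindrome of AGAACA, 3 bases and TGTTCT was found in 3 of all windows, and 1 of these belonged to Sgk1. That window lies inside the annotated Sgk1 gene, ahead of a downstream start, and its palindrome begins 189 bases before that start. It is printed with the window of Tsc22d3, the called target, which holds 1 half-site 185 bases before the start. The other 2 of the 3 Tsc22d3 windows hold none. Both run 5′ to 3′ along the gene's strand, and capitals mark the half-sites. A match is a description of the letters and no measurement of binding.
Sgk1, chr10:21993640-21993939, plus strand: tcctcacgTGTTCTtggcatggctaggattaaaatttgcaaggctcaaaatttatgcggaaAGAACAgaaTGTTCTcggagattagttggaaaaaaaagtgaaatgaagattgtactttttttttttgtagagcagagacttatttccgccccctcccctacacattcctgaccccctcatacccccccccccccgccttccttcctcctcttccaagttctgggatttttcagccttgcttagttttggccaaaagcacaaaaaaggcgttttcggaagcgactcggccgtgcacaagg
Tsc22d3, chrX:140600473-140600772, minus strand: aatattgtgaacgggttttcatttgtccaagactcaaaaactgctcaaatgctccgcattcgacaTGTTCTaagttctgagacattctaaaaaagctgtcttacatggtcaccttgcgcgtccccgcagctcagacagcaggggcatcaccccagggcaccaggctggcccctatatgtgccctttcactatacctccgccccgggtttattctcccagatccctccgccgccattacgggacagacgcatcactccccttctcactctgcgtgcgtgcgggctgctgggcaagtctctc
In the Sgk1 window a further half-site begins 242 bases before the start. The counts are summed over all transcripts of a gene, so no level can be tied to either start.

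Levels were compared between genes per length, as FPKM (counts relative to the exonic length and to the library total). In wild-type hippocampus Sgk1 stood highest with 21.2 ± 3.6 FPKM (SD, n = 3), followed by Zbtb16 with 16.8 ± 3.0, Tsc22d3 with 13.6 ± 1.3 and Nr3c1 with 12.7 ± 0.43. Neighbours among these overlapped between mice. A gap separated Nr3c1 from Sult1a1 (6.09 ± 1.2 FPKM), Fkbp5 (5.72 ± 0.69) and Pdk4 (5.67 ± 0.67), which overlapped with each other. A second gap lay between Pdk4 and Cdkn1a (1.35 ± 0.067), Hif3a (1.18 ± 0.37) and Plin4 (1.13 ± 0.41). Sgk1 was above 87.7% of the genes tested and Plin4 above 28.7%. TPM gave the same order, as it must within a library, since both scales divide the counts by the same lengths.

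**Figure D2:**
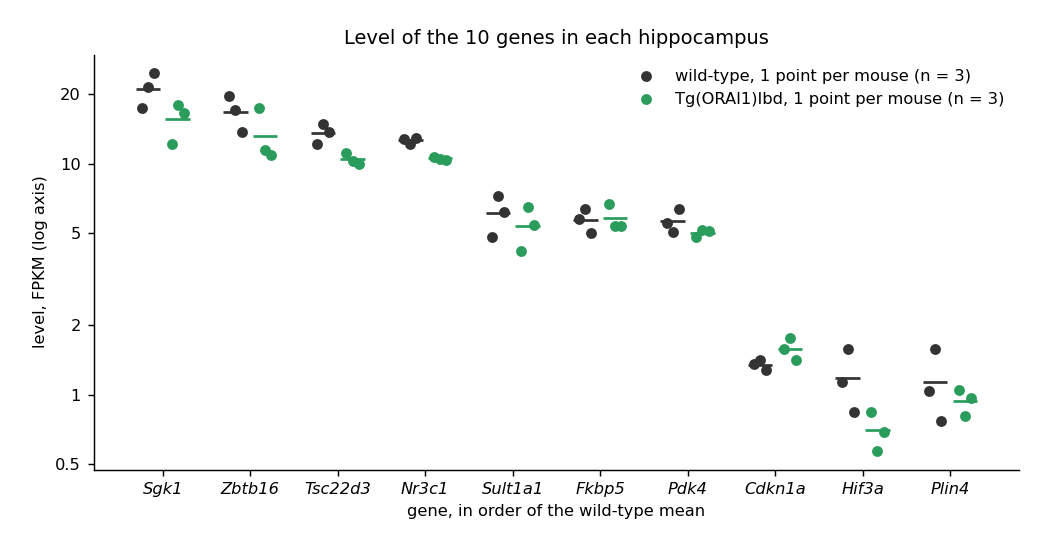
Level of the 10 genes in FPKM on a log axis, ordered by the wild-type mean, with 1 point per mouse and a bar at the mean of each genotype (n = 3). Sgk1 stands at 21.2 FPKM and Plin4 at 1.13 FPKM in the wild-type mean, and the genotypes are apart for Nr3c1, Tsc22d3 and Cdkn1a.

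Mice of a genotype differed from each other more for some of the genes than for others. The within-genotype SD of log2 CPM was 0.33 for Zbtb16, above that of 98.9% of the 2325 genes of like level, and 0.27 for Sgk1, above 98.04% of 2145 genes. For Fkbp5 it was 0.18, above 93.5% of 2636 genes. Hif3a (0.38) and Plin4 (0.39) were above 91.1% and 91.9% of their genes of like level. Of the called genes, Nr3c1 was at 0.041, above 17.3% of 2189 genes, and Tsc22d3 at 0.11, above 79.0% of 2674 genes. Of the receptor and its targets, the receptor was thus the steadiest within a genotype and the transcription factor Zbtb16 among the least steady. The mice did not share 1 order. Wild-type mouse 2 was the highest of its genotype for 6 genes and mouse 3 for 3, while the first transgenic mouse was the highest of its genotype for 6 genes and the lowest for 3.

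**Figure D3:**
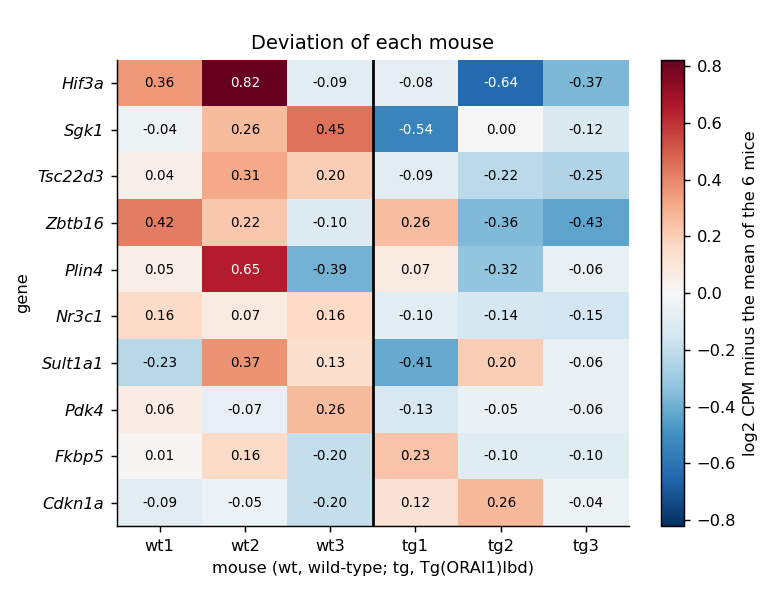
Log2 CPM of each gene and mouse minus the mean of the 6 mice, with wild-type mice left of the line and transgenic mice right of it. Red is above and blue below the mean of the gene, and the second wild-type mouse is the highest of all for Hif3a and Plin4 but not for Sgk1 or Zbtb16.

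Hif3a varied most over the 6 libraries (SD of log2 CPM 0.52). The 5 genes with the most similar values, by the root mean square difference of centred log2 CPM over 6 libraries, were Tekt1 (0.067), Gm13387 (0.078), Eno4 (0.085), Ttc25 (0.093) and Slc10a4 (0.11). Tekt1 had 4.66, 5.83 and 3.57 CPM in wild-type and 3.47, 2.31 and 2.91 CPM in transgenic mice, the order of mice seen for Hif3a within each genotype. Of the other described genes Plin4 was the closest to Hif3a, at 0.26, with 293 genes closer.

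The other genes of the pathway came from 5 lists of 73 genes, of which 71 were tested. None of them was higher and 5 were lower with an edgeR adjusted p under 0.05, and at an unadjusted p under 0.05 these numbers were 9 and 13. With GC offsets 0 were higher and 2 lower after adjustment, and 5 and 17 at an unadjusted p under 0.05. DESeq2 called 4 higher and 8 lower, and limma-voom 0 and 5. For counts without GC offsets, here and in the single lists, the background is the share of all genes given above for the 10 genes. With GC offsets 121 of the 19087 genes tested were higher and 273 lower after adjustment. Their share of all genes at an unadjusted p under 0.05 was not computed, so the counts there have no background. The choroid plexus markers were lower in the same mice, and their part in these differences was not tested.

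Of the 7 genes for steroid handling, 6 were tested and none passed in edgeR (3 at an unadjusted p under 0.05, all lower) or DESeq2, with a median log2 fold change of -0.18. Nr3c2, the mineralocorticoid receptor, had 193, 175 and 166 CPM in wild-type and 164, 148 and 145 CPM in transgenic mice. All 3 transgenic values were below the wild-type values, with a log2 fold change of -0.23 and an edgeR adjusted p of 0.0940. Without single mice the log2 fold change ran from -0.28 to -0.15, with an edgeR adjusted p from 0.0555 to 0.345. The ratio of Nr3c1 to Nr3c2 in FPKM was 0.462 ± 0.038 in wild-type and 0.451 ± 0.020 in transgenic mice (SD, n = 3, exact two-sided permutation test p = 0.8, adjusted p = 0.8 over 11 ratios between relatives). With 3 mice against 3 such a test cannot give a p below 0.1. Hsd11b1, which regenerates active corticosterone, was measured at 13.2 to 16.9 CPM in wild-type and at 12.1 to 17.9 CPM in transgenic mice (edgeR adjusted p = 0.679). Hsd11b2, the enzyme that inactivates corticosterone, had 0 counts in each wild-type library and 1 in each transgenic library and was not tested.

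Among 12 chaperones and cochaperones of the receptor none passed edgeR's test (4 higher and 1 lower at an unadjusted p under 0.05), DESeq2 called 2 higher and 1 lower, and the median log2 fold change was 0.056 (0.086 with GC offsets). Fkbp4, which encodes FKBP52 and raises the receptor's activity where FKBP51 lowers it, had 79.3, 73.6 and 74.4 CPM in wild-type and 97.1, 81.4 and 82.0 CPM in transgenic mice. The groups did not overlap, and the log2 fold change was 0.20 (SE 0.076, edgeR adjusted p = 0.142). It ran from 0.11 to 0.27 when single mice were left out. With GC offsets it was 0.10 (edgeR adjusted p = 0.411). The ratio of Fkbp5 to Fkbp4 in FPKM was 0.211 ± 0.028 in wild-type and 0.187 ± 0.0061 in transgenic mice (SD, n = 3, exact two-sided permutation test p = 0.2, adjusted p = 0.367 over the 11 ratios).

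Of 11 coregulators 2 fell and none rose, with a median log2 fold change of -0.11 (-0.062 with GC offsets). Ppargc1a, a coactivator of nuclear receptors that drives mitochondrial genes, had 60.6, 56.0 and 54.4 CPM in wild-type and 45.1, 46.4 and 47.8 CPM in transgenic mice (log2 fold change -0.30, SE 0.055, edgeR adjusted p = 0.029). Nrip1, a corepressor of nuclear receptors, had 47.1, 47.5 and 43.0 CPM in wild-type and 39.2, 38.1 and 36.5 CPM in transgenic mice (log2 fold change -0.27, SE 0.058, edgeR adjusted p = 0.038). For both genes every transgenic mouse was below every wild-type mouse. With GC offsets the log2 fold change was -0.22 for Ppargc1a (edgeR adjusted p = 0.0671) and -0.22 for Nrip1 (edgeR adjusted p = 0.0940).

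Of 25 further genes known to respond to glucocorticoids 1 fell and none rose, where 4.0% of all genes tested were called lower, with a median log2 fold change of -0.038. With GC offsets this median was -0.13, beside -0.0047 over all genes tested. These offsets gave 1 higher and 6 lower at an unadjusted p under 0.05, without a share of all genes to set beside them. Klf9, a Krüppel-like transcription factor that the receptor induces in neurons, had 153, 165 and 149 CPM in wild-type and 127, 112 and 110.0 CPM in transgenic mice. The groups were well apart, and the log2 fold change was -0.42 (SE 0.068, 95% interval -0.58 to -0.26, edgeR adjusted p = 0.023). It also passed with GC offsets (edgeR adjusted p = 0.0353). Per1, a clock gene with a glucocorticoid response element, had 84.9, 84.3 and 74.9 CPM in wild-type and 96.1, 71.6 and 74.7 CPM in transgenic mice (log2 fold change -0.0088, edgeR adjusted p = 0.970). The other 23 genes of this list did not pass in edgeR. At an unadjusted p under 0.05 in edgeR 1 gene of the list was higher and 3 were lower. DESeq2 called 1 higher, Cebpb (log2 fold change 0.42, adjusted p = 0.0147), and 2 lower, Klf9 and Nfkbia (adjusted p = 0.0443 for Nfkbia). With GC offsets the log2 fold change of Cebpb was 0.18 (edgeR adjusted p = 0.501).

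**Figure D4:**
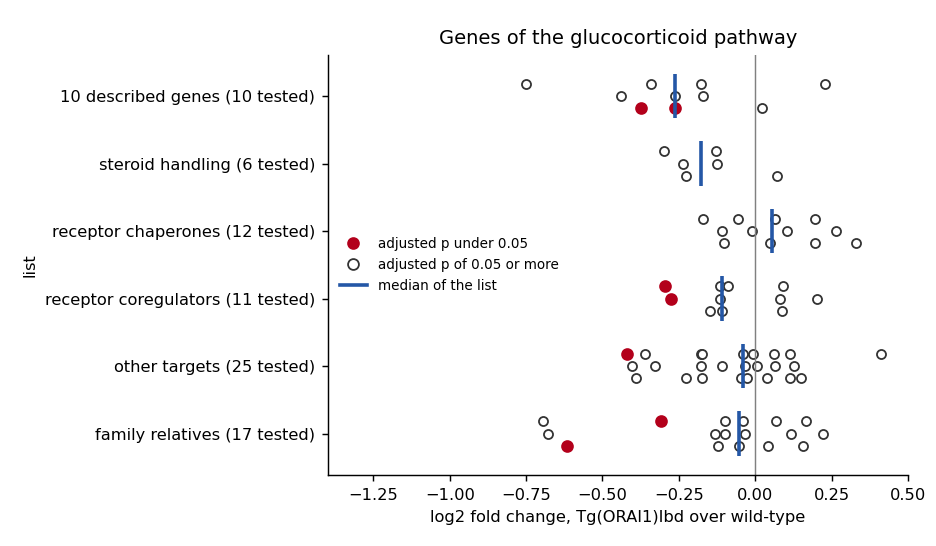
Log2 fold change (horizontal axis, transgenic over wild-type) of each tested gene in the 6 lists (vertical axis), with a bar at the median of the list and red points where the edgeR adjusted p was under 0.05. All red points lie left of 0, and the list medians run from -0.26 for the 10 described genes to 0.056 for the chaperones, before removal of the GC trend.

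Relatives of the described genes were compared to see which members of a family moved. Of 17 relatives tested 2 fell, with a median log2 fold change of -0.052 (-0.030 with GC offsets), and DESeq2 called 1 higher and 3 lower. Sgk3, a kinase of the Sgk1 family, had 19.7, 21.7 and 19.1 CPM in wild-type and 12.1, 14.02 and 13.3 CPM in transgenic mice, and the groups were far apart. Its log2 fold change of -0.62 had an SE of 0.082 and an edgeR adjusted p of 0.013, and it passed with GC offsets (edgeR adjusted p = 0.0343). Per length Sgk1 was 15.1 ± 3.0 times Sgk3 in wild-type and 16.9 ± 2.0 times in transgenic mice (SD, n = 3, exact two-sided permutation test p = 0.5, adjusted p = 0.611 over the 11 ratios). Hif1a, the hypoxia-induced alpha subunit, had 87.1, 83.8 and 79.9 CPM in wild-type and 61.0, 71.0 and 70.5 CPM in transgenic mice (log2 fold change -0.31, SE 0.069, edgeR adjusted p = 0.044). With GC offsets its log2 fold change was -0.15 and the edgeR adjusted p 0.109.

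Cdkn1c, which encodes the cell cycle inhibitor p57 of the Cdkn1a family, had 12.8, 15.7 and 13.3 CPM in wild-type and 6.37, 10.96 and 8.55 CPM in transgenic mice, without overlap. Its log2 fold change of -0.70 (SE 0.19) did not pass in edgeR (adjusted p = 0.0631) and passed in DESeq2 (adjusted p = 0.00494) and in edgeR with the replicate block (adjusted p = 0.0323).

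The most abundant relatives in the other families did not pass in edgeR. Tsc22d1, a leucine zipper protein of the Tsc22d3 family, had 360 to 370 CPM in wild-type and 367 to 381 CPM in transgenic mice. Its level per length was 3.01 ± 0.30 times that of Tsc22d3 in wild-type and 4.0 ± 0.19 times in transgenic mice, without overlap (SD, n = 3, exact two-sided permutation test p = 0.1, the smallest this design allows, adjusted p = 0.275 over the 11 ratios). Pdk2 was 6.02 ± 0.31 times Pdk4 in wild-type and 7.88 ± 0.31 times in transgenic mice, also without overlap (exact two-sided permutation test p = 0.1, adjusted p = 0.275). Pdk2 itself had a log2 fold change of 0.22 and an edgeR adjusted p of 0.0528, and DESeq2 called it higher (adjusted p = 0.00831). With GC offsets its log2 fold change was 0.12 (edgeR adjusted p = 0.264). Cdkn1b, which encodes the inhibitor p27, was 9.63 ± 0.54 times Cdkn1a in wild-type and 7.53 ± 1.2 times in transgenic mice (exact two-sided permutation test p = 0.1, adjusted p = 0.275). Plin3 and Sult4a1 had log2 fold changes of -0.041 and 0.12, with edgeR adjusted p of 0.844 and 0.166.

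The 5 genes called in the pathway lists also kept fold changes of about the same size when single mice were left out, and most of these smaller fits lost calls. On the log2 scale they ran from -0.65 to -0.54 for Sgk3, from -0.48 to -0.36 for Klf9, from -0.32 to -0.24 for Ppargc1a, from -0.31 to -0.23 for Nrip1 and from -0.34 to -0.24 for Hif1a. Without wild-type mouse 1, wild-type mouse 2 or transgenic mouse 3 none of the 5 genes passed, and their edgeR adjusted p ran from 0.0696 to 0.178, from 0.0639 to 0.163 and from 0.0633 to 0.137. Without transgenic mouse 2 Sgk3 passed at 0.0358, and Klf9, Ppargc1a, Nrip1 and Hif1a lay between 0.0835 and 0.111. Hif1a was the gene that did not pass without wild-type mouse 3 (edgeR adjusted p = 0.0547). All 5 genes passed without transgenic mouse 1.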

How the data were processed

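The 6 hippocampal RNAseq libraries, 3 per genotype, were grouped by the genotype in the labels. Per the labels and methods, the authors filtered reads of 76 bp with Trimmomatic, aligned them to mm10 with STAR and counted them with featureCounts 1.5.0-p1. The authors deposited raw counts per gene, with exonic lengths, on the Ensembl 95 annotation of GRCm38. Per the file headers the counting was stranded, used primary alignments and set the minimum mapping quality to 3. Total counts were 37414241 to 52497799.

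From the counts, genes were kept by filterByExpr (minimum count 10), TMM scaled the libraries, and the main test was edgeR's quasi-likelihood F-test, adjusted by the Benjamini-Hochberg method over all 19087 genes tested (threshold 0.05). CPM used the scaled totals. FPKM were computed here from counts, lengths and totals. Log2 CPM had a prior count of 2. Transcript GC content came from the GENCODE annotation, and GC trends were removed by loess (span 0.5) as offsets. Genes of like level lay within 0.5 log2 CPM. Alternatives were other scalings, DESeq2, limma-voom, other filters, GC offsets, a replicate block and leaving out each mouse. The fits were tested on simulated counts. R 4.3.3, edgeR 4.0.16, limma 3.58.1, DESeq2 1.42.0, Python 3.11.15 and scipy 1.17.1 were used. The NOISeq test of the study was not repeated.

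The 10 genes and all lists were chosen with earlier results of these data known. Named with values were the 10 genes, Orai1, genes of each pathway list with an adjusted p under 0.05 (at most the 4 lowest p per direction), Nr3c2, Hsd11b1, Fkbp4 and Per1, called relatives or otherwise the most abundant relative, and the 5 genes nearest to the gene that varied most. Hsd11b2, Ttr, Clic6, Otx2, Calml4, Cebpb, Nfkbia and Cdkn1c were named outside this rule, after their values were seen. P-values set the difference between genotypes against the spread between these mice.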

Additional observations from a re-analysis of the deposited data

How the results depend on the processing

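Each of the 10 genes was compared under 16 other settings, 160 comparisons, of which 135 kept the direction and the side of the threshold, 15 kept the direction and lost the call, 7 kept the direction and gained one and 3 turned in direction. Only Nr3c1 and Tsc22d3 had a call to lose, and they lost it in 7 and 8 of the 16 settings. Scaling alone (DESeq2's size factors, total counts, upper quartile) changed no direction of the 10 genes. With DESeq2's Wald test 4 of the 10 genes were lower, and of all genes 1055 were higher and 1175 lower, while 4 pathway genes were higher and 8 lower. Without a filter on low counts 4 of the 10 genes were called lower and, in the pathway lists, 4 genes higher and 6 lower. Of the 33581 genes in that fit 630 were higher and 873 lower. With at least 10 counts in every library 2 of the 10 genes were lower, and 1 pathway gene was higher and 5 were lower. That fit called 654 of 17901 genes higher and 669 lower. With GC offsets 0 of the 10 genes were called, with 121 genes higher, 273 lower and 2 pathway genes lower. These offsets gave 4 of the 10 genes lower at an unadjusted p under 0.05. The share of all genes at that threshold was not computed with offsets. The replicate block gave 263 genes higher, 475 lower, 1 pathway gene higher and 3 lower, and with the 2 calls among the 10 genes its edgeR adjusted p was 0.0449 for Nr3c1, 0.0309 for Sgk1 and 0.0622 for Tsc22d3. The block with GC offsets gave 99 genes higher, 312 lower and 3 pathway genes lower, and called 2 of the 10 genes lower, Sgk1 (edgeR adjusted p = 0.0357) and Zbtb16 (0.0376). The labels do not say that mice with the same number belong together, and the deviations of same-numbered mice correlated at 0.143 on average (-0.357 to 0.399, 3 pairs) against -0.0918 for 6 other pairs, across 11191 genes, which are not independent. Fits that each lacked 1 mouse called between 11 and 466 genes higher and between 66 and 683 lower, 0 to 2 of the 10 genes were lower, and 0 to 2 pathway genes were higher and 0 to 5 lower. In those fits Fkbp5 lay between -0.096 and 0.13, Plin4 between -0.46 and 0.070, Zbtb16 between -0.59 and -0.19, Sult1a1 between -0.31 and -0.016, Pdk4 between -0.23 and -0.073 and Hif3a between -0.94 and -0.48 on the log2 scale. Leaving out a mouse also leaves fewer mice in the fit, and the cause of the other changes was not tested. Wild-type levels were higher as TPM than as FPKM for all 10 genes, since the scales differ. The genes with the lowest counts had, per library, 146 to 445 for Hif3a, 171 to 262 for Cdkn1a and 168 to 384 for Plin4.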
